A study of Drosophila melanogaster with 3 samples.

Results

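The genes described here are 10 components of the epidermal growth factor receptor (EGFR) pathway of Drosophila melanogaster, out of 13945 protein-coding genes on the 6 major chromosome arms. They were chosen by name: the receptor gene Egfr, the ligand genes spi and vn, the ligand-processing protease genes rho and ru, the inhibitor genes aos and sty, the nuclear effector genes pnt and aop, and the adhesion molecule gene ed. For each gene, peak summits were collected from the gene body and 5 kb on each side, which is called its window. These windows held 33 of the 6201 peaks of the deposited list.

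Mirror belongs to the Iroquois homeodomain proteins, which act as transcription factors. Its binding was measured by ChIP-seq (sequencing of DNA recovered by chromatin immunoprecipitation) in whole embryos of mixed sex aged 4 to 20 h, so each peak is an average over all cell types of the embryo. Per the labels, the embryos came from a transgenic line that stably expresses Mirror with GFP at its C-terminus. The 3 biological replicates form 1 group, so the design holds no comparison between conditions and no test was made. Each sample's free-text description names an input control, whereas the assay and antibody fields name ChIP of Mirror, and the deposited file descriptions list the same control alignment beside each ChIP alignment. The 3 lists therefore share their control.

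In EGFR signalling, a secreted ligand binds the receptor tyrosine kinase Egfr and activates Ras and a cascade of kinases that ends in MAP kinase. MAP kinase activates the ETS transcription factor Pointed (pnt) and inactivates the ETS repressor Anterior open, also called Yan (aop). The pathway patterns the ventral ectoderm, the tracheae and the nervous system of the embryo, and several of its own inhibitors are transcribed in response to it. In the follicle cells of the ovary, mirr is itself known as a gene that responds to EGFR signalling.

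Peak lists of a strict and a relaxed kind were used. The strict list came from irreproducible discovery rate (IDR) filtering, which judges how well the ranks of peaks are reproduced. It held 6201 peaks called on the 3 replicates pooled, and these were the 6201 strongest regions of that pool. A listed peak can therefore rank low in a single replicate or be absent from it. Each replicate also had a relaxed list of exactly 30000 regions, called without an IDR threshold, of which the 6201 strongest were used to set the replicates side by side. A pooled relaxed list also held 30000 regions, and its label names peaks and background. Counts of its regions in a window were not set beside those of other genes. Each peak carries a signal given by the authors on a scale that is not stated. Only its order inside each list was used, rank 1 being the strongest. Read depth was not given in the sources used here and is unknown, so no counting interval is given.

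Every member had at least 1 IDR summit in its window. The share of all protein-coding genes with such a summit was 52.1%, so a count of 10 of 10 has to be read against a common property and against the length of the genes. The member windows ran from 15.1 kb at rho to 94.4 kb at ed, against a median of 12.2 kb over all genes. The 33 summits amounted to 0.823 per 10 kb of member window, against 0.463 per 10 kb over the chromosome arms. With the 3100 strongest IDR peaks, 5 of the 10 members had a summit (spi, vn, pnt, aop and sty), against 34.8% of all genes. By promoter, 6 of the 10 members (Egfr, spi, rho, pnt, aop and sty) had a summit within 1000 bp of one of their transcription start sites (TSSs), against 25.1% of all genes. In the strongest regions of each replicate, 9, 8 and 10 members had a summit in replicates 1, 2 and 3. The corresponding shares of all genes were 54.8%, 49.0% and 50.4%. None of these shares of all genes was matched for window length or number of start sites. The 10 members have 17 annotated start sites, against 19607 for the 13945 genes.

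**Figure D1:**
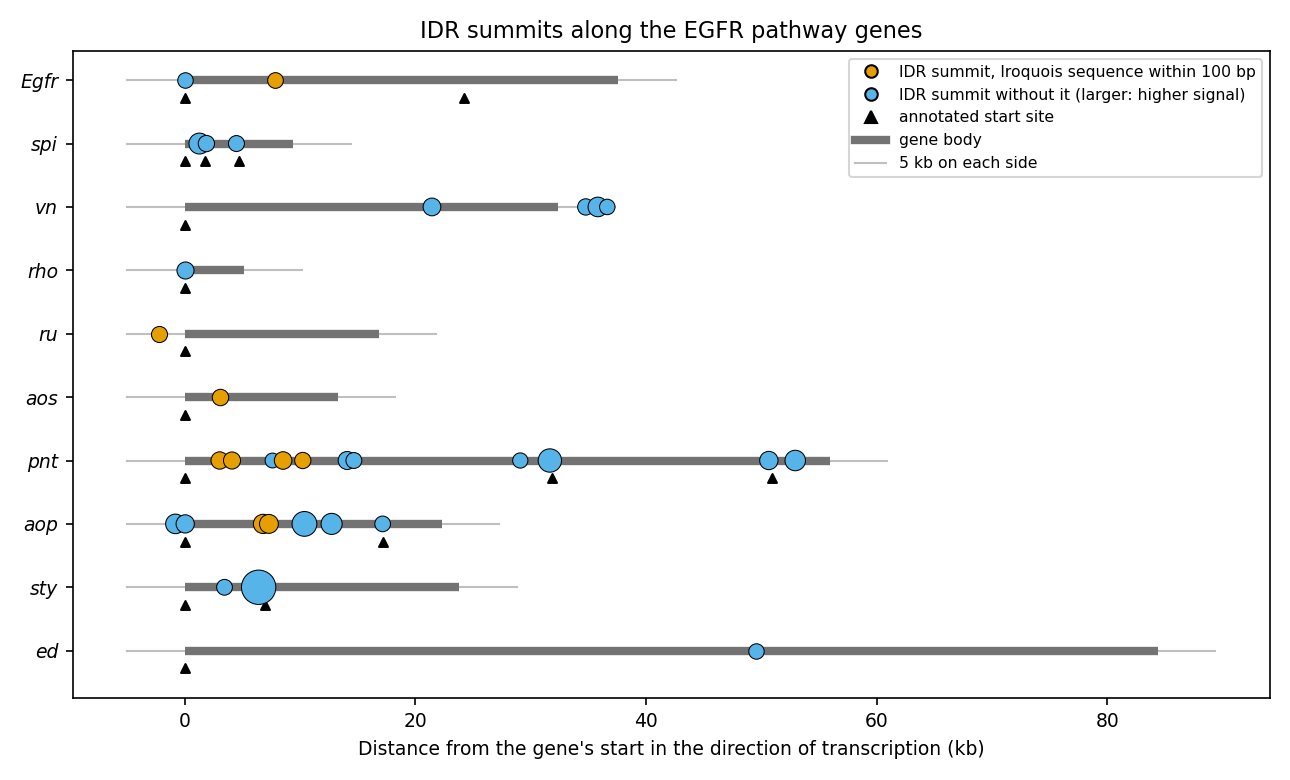
Position of the 33 IDR summits along each gene, in kb from the gene's start in the direction of transcription. Larger circles have a higher deposited signal, orange marks the 9 summits with the Iroquois sequence within 100 bp, and triangles mark annotated start sites. The summits of pnt and aop are spread along the gene, whereas ed has 1 summit 49546 bp from its start.

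Summits were divided unevenly among the members. The gene pnt held 11 of them and aop 7, followed by vn with 4, spi with 3, Egfr and sty with 2 each, and rho, ru, aos and ed with 1 each. Each member was also set beside genes of like window length, where the shorter window is at least 0.8 times the longer. Here 96.3% of the 241 genes like pnt and 91.5% of the 648 genes like aop had fewer summits. By the same measure 74.9% of 1771 genes had fewer summits than spi and 74.7% of 442 genes had fewer than vn. Of the 4 summits counted for vn, 3 lay past its 3′ end inside the neighbouring gene S6k. Without a flank vn had 1. Egfr and sty lay near the middle, with fewer summits in 49.6% of 401 genes and in 54.3% of 604 genes. For rho, 42.7% of 4990 genes had fewer summits and 31.6% had more. The single summits of ru and aos equalled the median of 1 in their like genes. Of the 865 genes like ru, 30.8% had fewer and 46.9% had more. For the 1115 genes like aos these shares were 32.8% and 44.8%. At the other end, ed with 1 summit lay below the median of 2 in its 113 like genes, of which 26.5% had fewer and 54.0% had more. Summed over the members, the mean number in genes of like window length was 21.9, against which the members held 33. Without pnt and aop, the other 8 members held 15 summits, against a summed mean of 16.9.

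Having any summit was common at these lengths. An IDR summit was present in 69.1% of genes with a window like that of Egfr, 63.1% for spi, 69.9% for vn, 57.3% for rho and 69.2% for ru. The share was 67.2% for aos, 66.4% for pnt, 69.1% for aop, 68.0% for sty and 73.5% for ed.

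**Figure D2:**
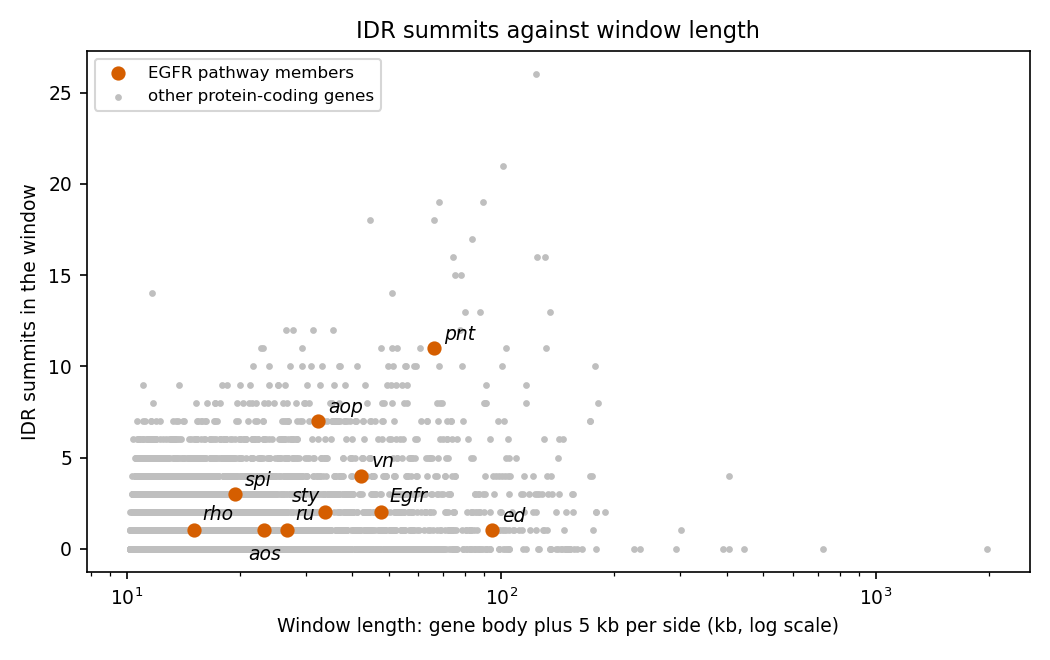
Number of IDR summits in the window of each protein-coding gene (grey) and of the 10 members (orange) against window length in kb on a log scale. The gene pnt has 11 summits in 65.9 kb and aop has 7 in 32.3 kb, whereas ed has 1 in 94.4 kb.

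The receptor gene Egfr (FBgn0003731, 2R, 21522420 to 21559977, plus strand) had 2 weak summits. The stronger one was intronic, 7810 bp inside the gene, with a signal of 229 (IDR rank 4721) and ranks 6639, 5586 and 5300 in replicates 1, 2 and 3. A start site of another gene lay nearer to it, at 6565 bp. The weaker lay 30 bp from the upstream start site, with a signal of 222 (IDR rank 4927) and ranks 5380, 2602 and 10529. A start site of CG30289 also lies within 1000 bp of this promoter summit. The downstream start site of Egfr, 24223 bp into the gene, had its nearest IDR summit at -16413 bp, upstream of it. The locus also held weaker listed regions, which can include background. Its window held 23 regions of the pooled relaxed list, of which 2 (8.70%) were IDR peaks, against 20.7% of all pooled regions. Of the other 21 regions, 10 (47.6%) were overlapped by a region of every replicate's relaxed list, against 48.3% of all pooled regions outside the IDR list. The best of the 21 had rank 7409.

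The ligand gene spi encodes a TGF-alpha-like protein made as a membrane-bound precursor, the main EGFR ligand of the embryo. It lies on 2L (FBgn0005672, 19567900 to 19577315, minus strand) and had 3 IDR summits, all within 500 bp of one of its own start sites. The strongest, with a signal of 453 (IDR rank 1342), lay 458 bp before the start site that is 1728 bp into the gene, and its best ranks in replicates 1, 2 and 3 were 518, 655 and 1588. The next, with a signal of 252, lay 146 bp past the same start site. The last, with a signal of 239, lay 224 bp before the start site that is 4705 bp into the gene, with ranks 2568, 6994 and 5332. In replicate 1 a single region of rank 518 overlapped both peaks at the middle start site. The most upstream start site of spi had its nearest summit 1270 bp away.

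The second ligand gene, vn, encodes a neuregulin-like secreted protein that needs no cleavage by Rhomboid proteases. It lies on 3L (FBgn0003984, 5813338 to 5845664, minus strand), and 4 summits fell in its window, of which 1 lay within the gene. That one was intronic, 21437 bp from the start site, with a signal of 309 (IDR rank 2847) and ranks 2832, 5198 and 2212. A start site of another gene lay nearer to it, at 11134 bp. The other 3 lay past the 3′ end of vn and inside S6k, a kinase gene of growth signalling. Of these, 1 lay 44 bp from a start site of S6k, with a start site of kri within 1000 bp. The strongest peak in the window (signal 390, IDR rank 1834) was an intronic peak of S6k, with ranks 2003, 1846 and 1829. Its summit in each replicate lay within 2 bp of the IDR summit. Without a flank, vn had 1 summit.

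The protease genes rho and ru encode Rhomboid family intramembrane proteases, which cleave membrane-bound EGFR ligands and are known as points at which ligand release is controlled. The gene rho (FBgn0004635, 3L, 1463811 to 1468944, plus strand) had 1 summit, 9 bp past its start site, with a signal of 282 (IDR rank 3355). It had ranks 4121 and 2243 in replicates 2 and 3. Replicate 1 had no region in the whole 15.1-kb window of rho, not even in its relaxed list, and the pooled list had only the IDR peak. The gene ru (FBgn0003295, 3L, 1370628 to 1387437, plus strand) had 1 summit, 2216 bp before its start site, with a signal of 243 (IDR rank 4253) and ranks 4173, 4951 and 5375. This summit lies within an intron of Ptp61F, a tyrosine phosphatase gene whose annotated body spans it, and with flanks of 2 kb ru had no summit. The body of Ptp61F also spans the summit at the start site of rho.

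Of the inhibitor genes, sty had the strongest peak of all members and aos a weak one. Sprouty, the product of sty, acts inside the cell against receptor tyrosine kinase signalling, and the product of aos, Argos, is a secreted protein that sequesters Spitz, the product of spi. The peak of sty (FBgn0014388, 3L, 3401153 to 3424935, minus strand) had a signal of 1328 and IDR rank 73. It ranked 126, 291 and 35 in replicates 1, 2 and 3, within the strongest 6201 regions in each. Its summit lay in an intron, 568 bp before the downstream start site of sty, which is 6974 bp into the gene. Replicate summits lay within 9 bp of it. A second, weak intronic summit (signal 232, IDR rank 4612) had ranks 8880, 5924 and 3110. The upstream start site of sty had no summit nearer than 3446 bp.

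The gene aos (FBgn0004569, 3L, 16470386 to 16483650, minus strand) had 1 intronic summit, 3086 bp from its start site, with a signal of 256 (IDR rank 3939). This summit also lies within the annotated body of CG33158. Its ranks were 2629 and 3570 in replicates 1 and 3 but 10688 in replicate 2, outside the 6201 strongest regions there. The pooled relaxed list held 4 regions in the window of aos.

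The nuclear effector genes carried 18 of the 33 summits. Pointed is the transcriptional activator of the pathway and is made as isoforms that start at different promoters. The gene pnt (FBgn0003118, 3R, 23290231 to 23346167, minus strand) has 3 annotated start sites, at 0, 31852 and 50929 bp into the gene. The strongest peak (signal 579, IDR rank 745) lay 189 bp before the middle start site and ranked 581, 1384 and 867 in replicates 1, 2 and 3. A peak with a signal of 334 (IDR rank 2494) lay 277 bp before the downstream start site and ranked 1920, 5168 and 2535. Between the downstream start site and the end of the gene, 2011 bp from that start site, lay another intronic peak with a signal of 432 and ranks 1768, 2076 and 1487. The upstream start site had its nearest summit 3026 bp away.

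A group of 7 intronic summits lay within 20 kb of the upstream start site of pnt, at 3026 to 14665 bp. This grouping was made after the positions were seen. Their signals ran from 198 to 321. Their ranks were 4774 to 8975 in replicate 1, 1805 to 11611 in replicate 2 and 1765 to 5529 in replicate 3. The other 4 summits of pnt ranked 581 to 6224, 1384 to 6624 and 867 to 5588. They include a weak intronic summit 29095 bp into the gene, with a signal of 211 (IDR rank 5361), inside the signal range of the group. Replicate 1 had 6 summits of its 6201 strongest regions in the window of pnt, against 9 in replicate 2 and 11 in replicate 3 (8.67 ± 2.52, SD, n = 3). The share of promoter summits among the 6201 strongest regions also differed between replicates, at 51.0%, 42.4% and 38.8% in replicates 1, 2 and 3. The part of this difference in the ranks at pnt was not tested.

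Anterior open (Yan) is the ETS repressor that competes with Pointed for DNA. The gene aop (FBgn0000097, 2L, 2156484 to 2178754, minus strand) had 7 summits, the highest density of the members at 2.17 per 10 kb. Its strongest peak (signal 660, IDR rank 534) was intronic, 10378 bp from the upstream start site and 6849 bp before the downstream one, and ranked 750, 1199 and 369 in the 3 replicates. A neighbouring intronic peak with a signal of 462 (IDR rank 1293) ranked 2049, 2581 and 801. A pair of intronic summits, at 6783 and 7297 bp, had signals of 373 and 359. Near the upstream start site, 1 summit lay 811 bp before it (signal 389, ranks 1398, 3012 and 2352) and 1 lay 36 bp past it (signal 329, ranks 5486, 3237 and 2389). The weakest (signal 228) lay 69 bp before the downstream start site, with rank 9561 in replicate 2 and 4384 and 4082 in replicates 1 and 3. Of the 7 peaks of aop, 6 were overlapped by the 6201 strongest regions of every replicate, against 5 of the 11 peaks of pnt.

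The DNA under the strongest peak of each of the 3 members with the highest signals is shown to give the sequence context of these summits. Each run is the plus strand of dm6 from 100 bp before to 100 bp after the summit. Capitals mark matches to the GATA factor sequence (AGATAAG or TGATAAG) or the GAGA sequence (GAGAGAG) on either strand. The run of sty is chr3L:3418429-3418629, that of aop chr2L:2168276-2168476 and that of pnt chr3R:23314404-23314604.
sty: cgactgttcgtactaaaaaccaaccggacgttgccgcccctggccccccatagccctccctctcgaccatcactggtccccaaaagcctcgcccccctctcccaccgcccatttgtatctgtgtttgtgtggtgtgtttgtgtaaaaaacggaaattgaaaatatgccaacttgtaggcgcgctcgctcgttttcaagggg
aop: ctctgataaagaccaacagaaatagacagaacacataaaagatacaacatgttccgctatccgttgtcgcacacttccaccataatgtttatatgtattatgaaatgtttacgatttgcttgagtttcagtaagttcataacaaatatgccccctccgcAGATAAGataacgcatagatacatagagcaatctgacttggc
pnt: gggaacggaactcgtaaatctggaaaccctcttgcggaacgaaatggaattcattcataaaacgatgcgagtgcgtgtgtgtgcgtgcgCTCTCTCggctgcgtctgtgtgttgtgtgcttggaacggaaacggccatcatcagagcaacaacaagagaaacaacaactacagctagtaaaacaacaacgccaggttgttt
The run of aop holds 1 GATA match. The run of pnt holds 1 GAGA match, read on the other strand, and also holds the Capicua sequence TGAATGAA and the CA repeat CACACACA, both read on the other strand and not capitalised. None of the 3 holds the Iroquois sequence.

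The Iroquois sequence ACANNTGT, a palindrome bound by Iroquois proteins in vitro, lay within 100 bp of 9 of the 33 member summits (27.3%), against 13.4% of all 6201 IDR summits. All 9 were intronic. They belonged to pnt with 4, aop with 2, and Egfr, ru and aos with 1 each. Of the 10 member promoter summits, those within 500 bp of a TSS, 0 had it, against 333 of 2788 (11.9%) among all IDR summits. Of the 23 other member summits 9 (39.1%) had it, against 14.6%. The 4 summits of pnt with a match all lay in the group within 20 kb of its upstream start site. Without pnt the share was 5 of 22 summits (22.7%). The share depended on the width of the search. Within 50 bp it was 18.2%, against 7.45% of all IDR summits, and within 250 bp it was 27.3%, against 26.1%. Summits in 1 gene share a locus and are not independent, so these shares are a description.

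The match nearest to each summit is shown with 10 bases on each side, on the plus strand of dm6, with the match in capitals. The match of Egfr is not shown. Every ACANNTGT also contains CANNTG, the E-box core bound by basic helix-loop-helix factors, so the letters do not single out an Iroquois protein.
ru, chr3L:1368447-1368474: tgttgttcgaACATCTGTtcgattcgcc
aos, chr3L:16480459-16480486: tcattcacacACACGTGTacagtgagag
pnt, chr3R:23343135-23343162: aagtgacttgACAATTGTccttatcgat
pnt, chr3R:23342046-23342073: acgtacacatACATATGTaaatcgttgg
pnt, chr3R:23337601-23337628: aacagcacgtACATATGTgagtcgagat
pnt, chr3R:23335892-23335919: cgtacactacACATTTGTatatttagtt
aop, chr2L:2171995-2172022: acgcaaacgcACACCTGTtgttggcaca
aop, chr2L:2171489-2171516: cattataataACACTTGTgaataccgtg
The centre of the match lay 8, 12, 26 and 27 bp from the summit at the 4 sites of pnt, in the order shown. The distance was 38 and 46 bp at aop, 49 bp at ru and 91 bp at aos. Per the labels, the DNA fragments were 200 to 800 bp long. The distances are short beside these lengths and do not place binding to the base. The match at aos lay outside the called peak, which runs from 16480490 to 16480589. The variable bases are not the same at all sites, and ACATATGT occurs at 2 of the pnt sites.

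Other sequences were searched in the same way, on both strands. The GATA sequence lay at 9 member summits (27.3%), against 20.1% of all IDR summits, with 4 at pnt, 3 at aop and 1 each at vn and sty. The summit counted here for vn lay inside S6k, 4314 bp past the 3′ end of vn. The TALE homeodomain sequence TGACAG lay at 5 (15.2%, against 7.58%), namely 2 at aop and 1 each at spi, vn and pnt. The ETS factor sequence CGGAAG, of the family that pnt and aop belong to, lay at 2 (6.06%, against 5.42%), both at pnt. The GAGA sequence lay at 3 (9.09%, against 7.43%), the CA repeat CACACACA at 3 (9.09%, against 10.3%), the Capicua sequence TGAATGAA at 1 (3.03%, against 1.81%) and the promoter element TATCGATA at none (against 2.52%). With 33 summits in all, 1 summit is a share of 3.03%.

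The adhesion molecule gene ed encodes Echinoid, an immunoglobulin-domain protein of cell junctions that is known to antagonise EGFR signalling in the eye. It is the longest member (FBgn0000547, 2L, 4031377 to 4115749, plus strand) and had the lowest density, 0.106 summits per 10 kb. Its only IDR summit was intronic, 49546 bp from the start site, with a signal of 219 (IDR rank 5059) and ranks 4693, 9542 and 4406 in replicates 1, 2 and 3. A start site of another gene lay nearer to this summit, at 39420 bp. Replicate 2 had none of its 6201 strongest regions in the window. The pooled relaxed list held 20 regions there, of which 1 (5.00%) was the IDR peak, and 7 of the other 19 (36.8%) were met by all 3 relaxed lists, against 48.3% of all pooled regions outside the IDR list.

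**Figure D3:**
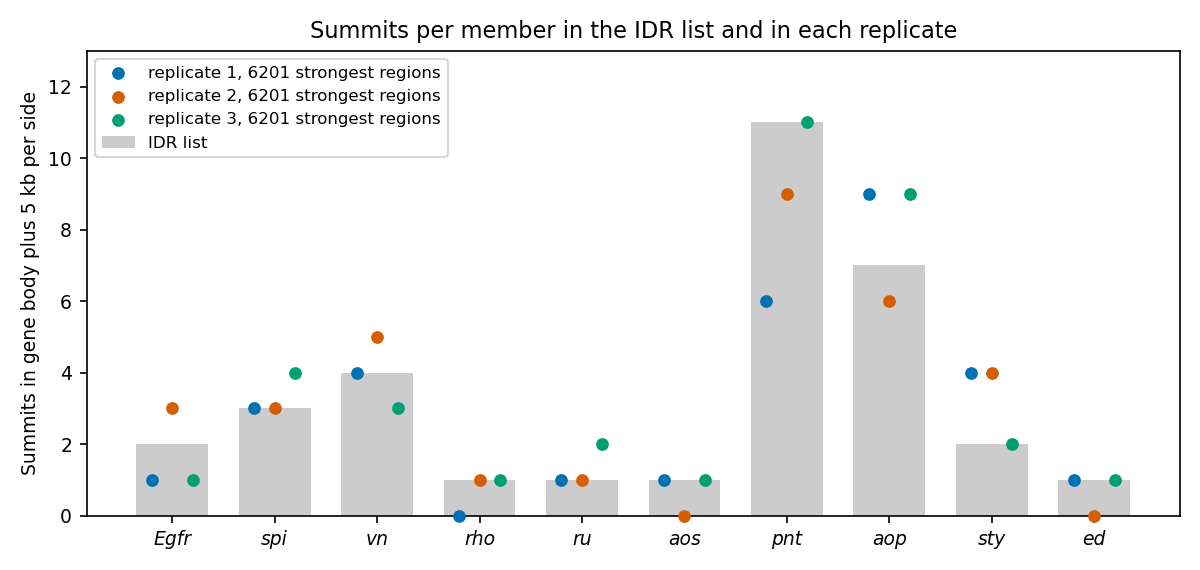
Number of summits in the window of each member in the IDR list (grey bars) and among the 6201 strongest regions of each replicate (points). At pnt the replicates have 6, 9 and 11 summits, and at aop 9, 6 and 9. Replicate 1 has none at rho, and replicate 2 has none at aos and ed.

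The replicates gave similar totals for the pathway, with differences at single genes. The member windows held 30, 32 and 35 summits of the strongest regions in replicates 1, 2 and 3 (32.3 ± 2.52, SD, n = 3). At aop the numbers were 9, 6 and 9 (8.0 ± 1.73), at vn 4, 5 and 3 (4.00 ± 1.00), at spi 3, 3 and 4 (3.33 ± 0.577) and at sty 4, 4 and 2 (3.33 ± 1.15). At Egfr they were 1, 3 and 1 (1.67 ± 1.15) and at ru 1, 1 and 2 (1.33 ± 0.577). The counts of pnt and aop lay above those of every other member in each replicate. Those of spi, vn and sty overlapped one another, and those of Egfr overlapped those of spi, vn, sty and ru.

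Recurrence of the member peaks was close to that of all IDR peaks. Of the 33 peaks, 32 (97.0%) were overlapped by a relaxed region of all 3 replicates, against 93.8% of all IDR peaks, and the exception was the peak of rho. With the 6201 strongest regions of each replicate, 18 peaks (54.5%) were met by all 3 replicates, 12 by 2 and 3 by 1, against 56.1% of all IDR peaks met by all 3. Summits of the overlapping regions lay at a median of 20.5, 21.0 and 12 bp from the IDR summit in replicates 1, 2 and 3. The IDR list was derived from these replicates, so recurrence is not independent evidence for its peaks.

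**Figure D4:**
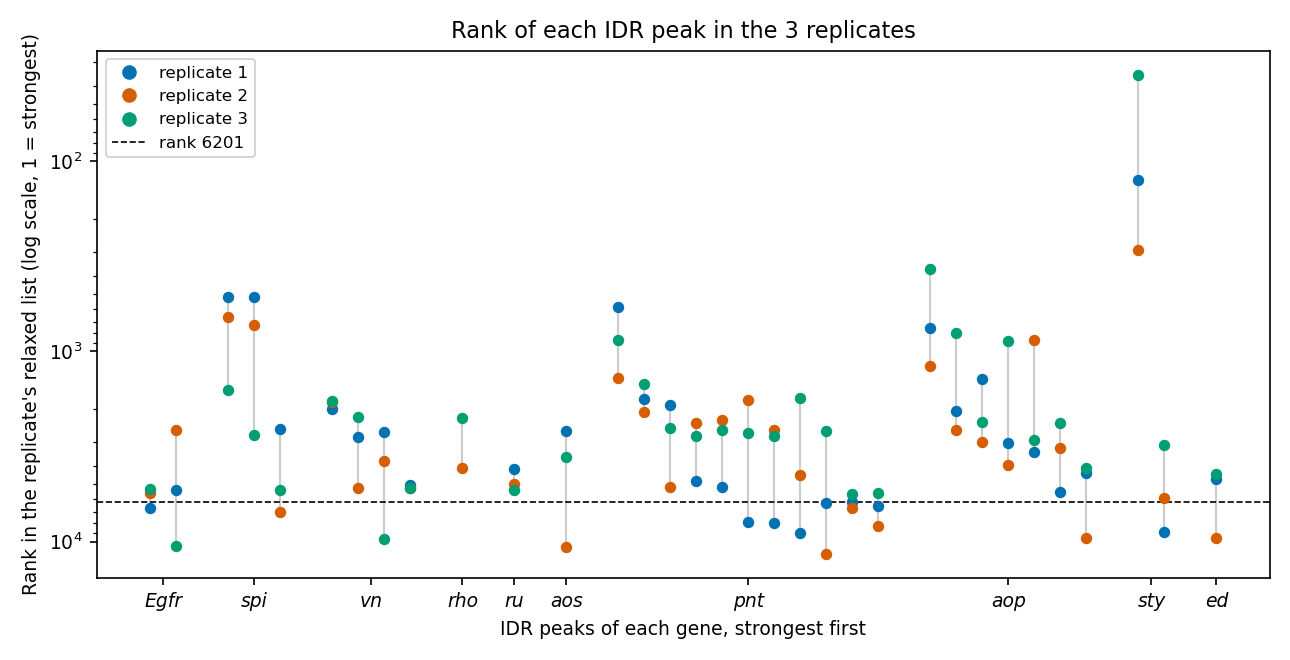
Rank of each of the 33 IDR peaks in the relaxed list of each replicate, on a log axis with the strongest at the top; the dashed line is rank 6201. The strongest peak of sty ranks 126, 291 and 35, whereas the 2 peaks of Egfr rank between 2602 and 10529. The peak of rho has no point for replicate 1.

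By position, promoter summits (those within 500 bp of a TSS) made up 10 of the 33 member summits, or 30.3%. Among all IDR summits their share was 45.0%. Of the summits farther from any TSS, 22 were intronic and 1 was intergenic. Promoter summits were not divided further by exon, intron or UTR. Of the 10 promoter summits, 1 was at S6k, in the window of vn. Of the 17 annotated TSSs of the members, 9 had an IDR summit within 1000 bp. At spi, pnt and sty the upstream start site was among those without one, whereas a downstream start site had one. At aop both start sites had one, and at Egfr only the upstream start site did. The genes vn, ru, aos and ed, with 1 start site each, had none.

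The other genes of the pathway were examined by role, with 33 genes in all. An IDR summit lay in the window of 20 of them (60.6%), against 52.1% of all genes. Within 1000 bp of a TSS, 10 had one (30.3%), against 25.1% of all genes. Among ligands and their processing factors, 3 of 7 had such a promoter summit: Krn, which encodes a Spitz-like ligand (signal 388, ranks 1487, 2659 and 1929 in replicates 1, 2 and 3), the rhomboid gene stet (signal 231, no region in replicate 3) and S, which encodes the transmembrane protein Star that carries Spitz through the secretory pathway (signal 226). The peak of Krn also lay within 1000 bp of start sites of CG7484 and Ndfip, and that of S within 1000 bp of one of ast. The ovarian ligand gene grk and rho-4 had none.

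In the cascade from receptor to MAP kinase, 3 of 11 genes had a promoter summit. The adaptor gene Shc had a strong peak (signal 1190, IDR rank 95, ranks 85, 873 and 68), 138 bp from its start site, that a start site of Atat shares. The genes Ras85D (signal 378), which encodes Ras, and Raf (signal 254) had weaker ones, and the peak of Ras85D had no region in replicate 3 and a start site of Rlb1 nearby. The scaffold gene cnk and the phosphatase gene csw had none, with 3 and 1 summits elsewhere in their windows. Raf had 10 summits in its 58.4-kb window.

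Among negative regulators 2 of 7 had a promoter summit, RasGAP1 (signal 392), which encodes a GTPase-activating protein of Ras, and the MAP kinase phosphatase gene Mkp3 (signal 369). The ubiquitin ligase gene Cbl and the transmembrane inhibitor gene kek1 had none, and kek1 had no summit in its window. Among nuclear factors 2 of 7 had one, the ETS gene Ets21C (signal 365, ranks 2137, 1842 and 2572) and cic (signal 256), which encodes the repressor Capicua. The genes edl and Eip74EF had none, with 1 and 4 summits elsewhere in their windows. The paralog of ed, fred, had no IDR summit in its 98.8-kb window, and replicate 2 alone had 1 of its strongest regions there.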

How the data were processed

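Mirror ChIP-seq in whole embryos was analysed from the peak lists that the authors deposited. Per the deposited file descriptions, each relaxed list was called on 1 replicate, or on all 3 pooled, against a control alignment on dm6, and the IDR list was derived from these. The caller, the IDR threshold and read depth are not given in the sources used here. The signal of each peak is the value deposited by the authors, without a stated scale, and was used only within a list. The 6201 IDR peaks were the 6201 strongest pooled regions.

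Chromosome lengths of the release 6 sequence held every peak and every gene of the Ensembl 115 annotation (BDGP6.54). Windows were gene bodies plus 5000 bp, and summits, TSSs and sequences were matched in Python 3.11.15 with NumPy 2.4.6 and pandas 2.3.3, after checks on simulated summits. Summit shares are descriptions and no p-value was computed. Among the labels used here, only the biological replicate number differs between the samples, so a batch is not known. The members and lists were chosen with earlier results of these data known. All members are named, other genes where they have a TSS within 1000 bp of a member summit, and pathway genes by role, up to 4 bound and 2 unbound. Full sequence is printed for 3 of the 10 members. RasGAP1 was listed under its older symbol, Gap1. Alternatives were other flanks, distances, overlap rules, search widths, stronger peaks and leaving out each replicate. Assigning summits to the nearest TSS and leaving out pnt were added after seeing the data.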

Additional observations from a re-analysis of the deposited data

How the results depend on the processing

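The members with an IDR summit numbered 9 or 10 under every flank tried (none, 2 kb and 10 kb) and under the rule of any overlapping base. They numbered 8, without vn and ed, when only summits nearest to the member's own TSS were counted. With the 3100 strongest IDR peaks they numbered 5, with 15 summits against 33. Egfr, rho, ru, aos and ed then had none, and each of their peaks lay below rank 3100. The total of 33 was 28 to 41 over the flanks and 27 by nearest TSS. Promoter counts were 5 within 500 bp, 6 within 2000 bp and 4 with the stronger peaks, against 6. The share of peaks met by all 3 replicates, 97.0%, became 66.7% with 50% reciprocal overlap, 81.8% with summits within 100 bp and 54.5% with the strongest regions. The share with the Iroquois sequence ran from 18.2% to 27.3%. Replicate summits in the member windows averaged 31.0 to 33.5 with any 1 replicate left out, and 161 in the whole relaxed lists, which hold more regions. Members with such a summit averaged 8.50 to 9.50 with any 1 left out. Of 70 values for single members, 15 moved beyond their limit, 9 of them through the longer relaxed lists. Without a flank, or with one of 2 kb, vn had 1 summit and ru had 0, and with 10 kb spi had 5 and sty had 4. Read depth is unknown, so an empty window is a region not listed here rather than an absence of binding.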
